A study of Mus musculus with 15 samples.

Results

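Carnitine shuttle genes were followed across adipocyte precursor cells from mouse pups nursed on milk whose polyunsaturated fatty acids had a low or a high n6/n3 ratio. The 7 genes were Slc22a5, Cpt1a, Cpt1b, Cpt1c, Slc25a20, Cpt2 and Crat, taken by matching the Ensembl gene IDs of both deposited tables to these symbols. All 7 were present in both tables, among 24673 genes listed in either one, and all 7 had a mean of at least 10 normalized counts in each population and were tested.

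The cells came from subcutaneous adipose tissue of wildtype C57Bl/6 pups that had been cross-fostered, so that milk from a foster dam was the exposure. The labels give its length as 12 days in one protocol and 10 days in another. Flow sorting took CD24- cells, which the labels call preadipocytes, and CD24+ cells, which they call progenitors, and RNA was sequenced in bulk after NuGEN Universal Plus mRNA library preparation. There were 4 preadipocyte libraries on low-ratio milk (108, 114, 119 and 133), 3 preadipocyte libraries on high-ratio milk (1015, 1017 and 1019), 4 progenitor libraries on low-ratio milk (108, 114, 119 and 133) and 4 progenitor libraries on high-ratio milk (1015, 1017, 1018 and 1019). The source names of the 4 low-ratio preadipocyte libraries state the high ratio, and the entry in the sample characteristics was followed. Whether a library held 1 pup or a pool is not stated, so p-values measure only the spread between these libraries, which may in part be technical.

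Long-chain fatty acids cannot cross the inner mitochondrial membrane as coenzyme A esters. CPT1 on the outer membrane moves the acyl group to carnitine, the carrier SLC25A20 exchanges the acylcarnitine for free carnitine across the inner membrane, and CPT2 on the matrix side returns the acyl group to coenzyme A for beta-oxidation. CPT1 is inhibited by malonyl-CoA, which makes it the usual control point of the pathway. Carnitine itself enters cells through the plasma membrane transporter SLC22A5, and CRAT moves short acyl groups, mainly acetyl, between coenzyme A and carnitine.

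Normalized counts below are the authors' variance stabilized values taken back to a linear scale, and the tables of the 2 populations had been normalized separately. The depth estimated for the 15 libraries lay between 13.9 and 69.0 M (mega) reads, and both ends lay in the preadipocytes on high-ratio milk: 13.9 M in library 1015, 69.0 M in library 1017 and 22.9 M in library 1019. All 12 genes listed as adipocyte precursor markers were present, with Pdgfra at 11054 to 21984 normalized counts in preadipocytes and 14145 to 18013 in progenitors. Cd24a, the gene of the sorted surface protein, ranged from 562 to 720 in preadipocytes and from 1836 to 2676 in progenitors. Replicates of a group correlated at a Pearson r of 0.926 to 0.960 across genes within pairs of libraries. In bulk RNA, fewer cells of a type and less RNA per cell cannot be told apart.

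Promoter sequences are shown for the most abundant gene (Cpt1a), the pair of genes whose milk groups did not overlap in preadipocytes (Cpt2 and Slc25a20) and the gene with the largest difference in milk effect between the populations (Slc22a5). Each is the 250 bases before the RefSeq gene start on GRCm38.p6, written 5′ to 3′ on the strand of the gene, with matches to the GC box GGGCGG or the CCAAT box CCAAT in capitals, on either strand. The windows are chr19:3323051-3323300 (+) for Cpt1a, chr4:107923590-107923839 (-) for Cpt2, chr9:108661886-108662135 (+) for Slc25a20 and chr11:53891704-53891953 (-) for Slc22a5. These RefSeq starts differ from the ends of the gene spans given below, which are from GENCODE M21. The Cpt1a window lies inside its gene span, and those of Cpt2 and Slc25a20 run into theirs.
Cpt1a: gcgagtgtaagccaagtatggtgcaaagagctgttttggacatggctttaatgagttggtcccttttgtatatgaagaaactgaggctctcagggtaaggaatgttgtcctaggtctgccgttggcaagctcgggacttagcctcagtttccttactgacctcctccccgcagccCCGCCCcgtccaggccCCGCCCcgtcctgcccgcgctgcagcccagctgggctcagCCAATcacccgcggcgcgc
Cpt2: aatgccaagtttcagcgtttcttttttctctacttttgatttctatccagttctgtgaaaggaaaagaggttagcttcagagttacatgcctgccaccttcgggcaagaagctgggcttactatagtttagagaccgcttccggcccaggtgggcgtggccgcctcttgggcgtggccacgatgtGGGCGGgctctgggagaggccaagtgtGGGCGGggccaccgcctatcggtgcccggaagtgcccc
Slc25a20: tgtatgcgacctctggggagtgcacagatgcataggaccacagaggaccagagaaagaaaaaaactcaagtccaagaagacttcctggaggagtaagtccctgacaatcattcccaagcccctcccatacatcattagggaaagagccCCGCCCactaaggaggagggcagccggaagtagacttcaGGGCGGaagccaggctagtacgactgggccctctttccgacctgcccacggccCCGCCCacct
Slc22a5: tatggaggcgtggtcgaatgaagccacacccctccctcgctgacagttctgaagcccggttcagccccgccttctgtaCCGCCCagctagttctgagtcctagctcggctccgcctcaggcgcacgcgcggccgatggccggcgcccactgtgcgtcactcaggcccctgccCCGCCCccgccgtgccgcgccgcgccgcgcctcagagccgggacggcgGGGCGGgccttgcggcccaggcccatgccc

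Of the 7 genes, 5 were matched in the promoter table, namely these 4 and Cpt1c. A GC box match was found in all 5, beginning 75 and 59 bases before the start in Cpt1a, 36 bases before it in Cpt1c, 65 and 38 in Cpt2, 102, 63 and 10 in Slc25a20, and 172, 78 and 30 in Slc22a5. Over all 32851 promoters of the table, 32.7% held a GC box match in the same window. A CCAAT match was found 19 bases before the start in Cpt1a and 13 bases before it in Cpt1c, and 33.8% of all promoters held one. No match of the 2 motifs overlapped a match of the other in these promoters. The direct repeat bound by PPAR and RXR (2 copies of AGGTCA with 1 base between them, both strands) was found in none of the 5 windows and in 0.0335% of all promoters, so these letters are rare in such windows altogether.

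Low-ratio against high-ratio milk was the comparison made within each population, and the difference of both effects compared the populations. In preadipocytes all 7 genes had a higher mean on low-ratio milk, with a median log2 fold change of 0.39 over the 7 genes, against 0.04 over all genes tested. None passed an adjusted p under 0.05 (limma with Benjamini-Hochberg adjustment over 15893 genes), where 2.88% of all genes did. At an unadjusted p under 0.05 there was 1 of 7 (Cpt2), against 21.7% of all genes, and the authors' deposited table likewise gives none of the 7 an adjusted p under 0.05. A log2 fold change above 0 was found for 54.1% of all genes in this comparison. In progenitors 4 of 7 had a positive log2 fold change (49.5% of all genes), with a median of 0.04 against -0.00 over all genes. There 0 of 7 passed, as did 0.0% of 15973 genes, and 1 of 7 (Slc22a5) had an unadjusted p under 0.05 against 6.88% of all genes. Fold changes are low minus high on the log2(normalized count + 1) scale, on which the size of a low gene's change depends on the added count.

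**Figure D1:**
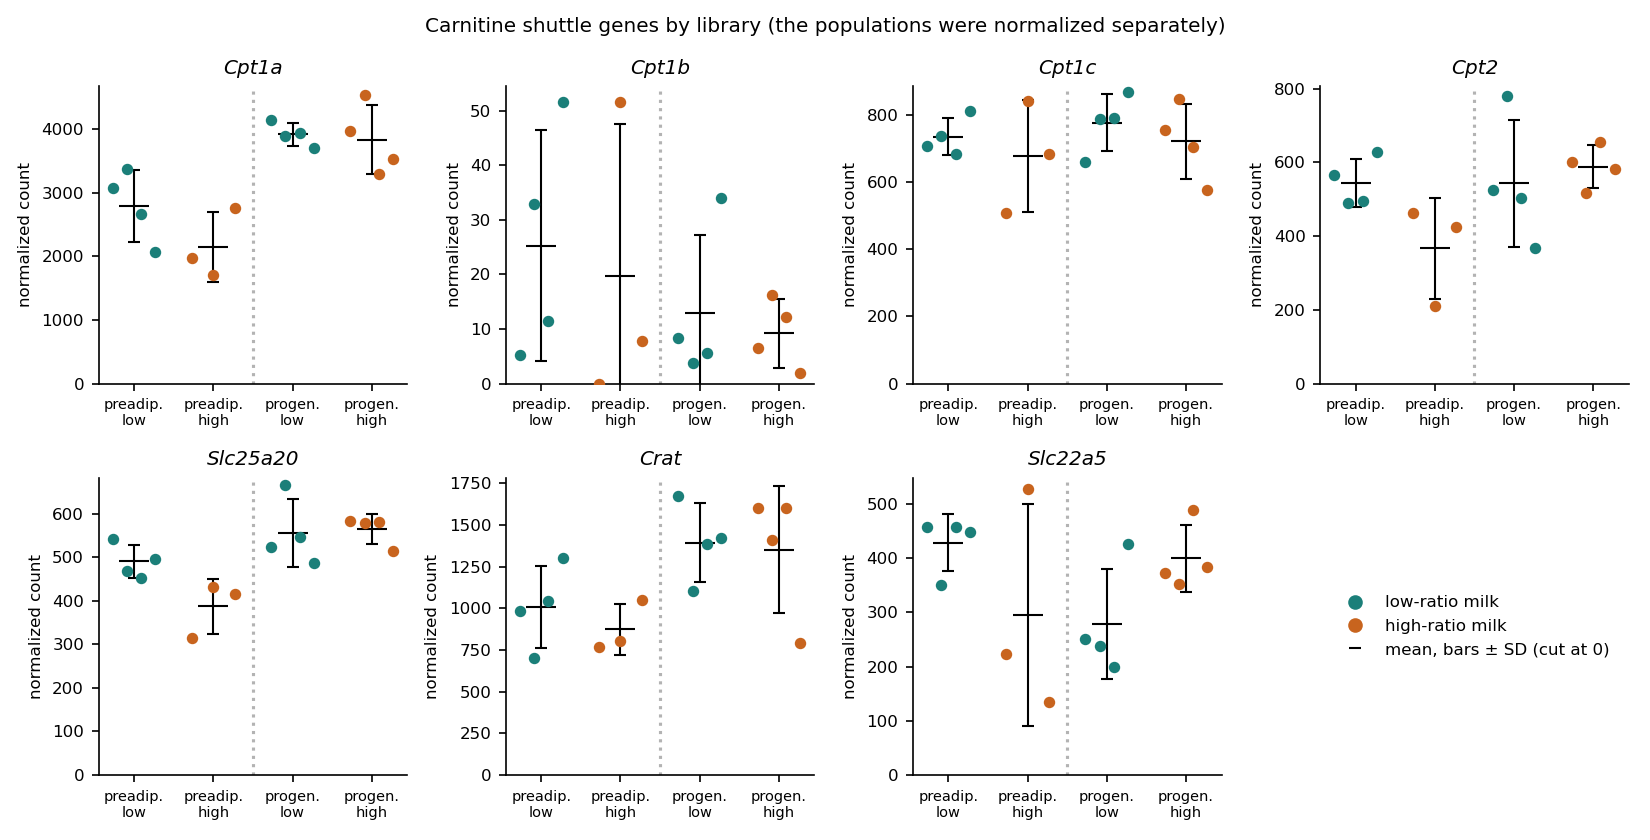
Normalized counts of the 7 genes (vertical axes, from 0) in every library, with preadipocytes left and progenitors right of the dotted line and low-ratio milk left of high-ratio milk within each. Points are libraries, the horizontal line is the group mean and bars are ± SD, cut at 0. The milk groups do not overlap for Cpt2 and Slc25a20 in preadipocytes, and they overlap in every other panel and population.

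Slc22a5 (ENSMUSG00000018900, chromosome 11 from 53864542 to 53891660, minus strand, GRCm38) encodes the sodium-dependent carnitine transporter of the plasma membrane. It had 457, 350.5, 457 and 449 normalized counts in preadipocyte libraries 108, 114, 119 and 133 on low-ratio milk, against 224, 527 and 135 in libraries 1015, 1017 and 1019 on high-ratio milk. Low-ratio libraries 108, 119 and 133 lay close together at 449 to 457, with library 114 below them. The high-ratio group held both the lowest and the highest value of the population. In progenitors it had 251, 237, 199.6 and 426 on low-ratio milk (108, 114, 119 and 133), against 372, 353, 489 and 383 on high-ratio milk (1015, 1017, 1018 and 1019). Of the low-ratio progenitor libraries, 3 lay below all high-ratio ones and library 133 lay among them. The log2 fold change was 0.76 ± 0.40 (SE, 95% confidence interval -0.15 to 1.66, adjusted p = 0.303 by limma) in preadipocytes. In progenitors it was -0.57 ± 0.24 (SE, interval -1.10 to -0.04, unadjusted p = 0.0377, adjusted p = 0.709 by limma).

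The difference between these effects, preadipocytes minus progenitors, was 1.32 ± 0.48 for Slc22a5 (SE, interval 0.30 to 2.35, unadjusted p = 0.0149, adjusted p = 0.166 by limma over 15354 genes). It ranked 1382 of 15354 genes by p, and 2.28% of genes passed in this comparison. Single libraries set the size of this difference and of the preadipocyte effect. The preadipocyte effect was 1.29 without high-ratio library 1017 and 0.31 without high-ratio library 1019. The difference between populations was 0.88 without preadipocyte library 1019. Without preadipocyte library 1017 the difference between populations was 1.86 and passed (adjusted p = 0.0424 by limma), the one call among the 7 genes under any setting tried. Library 1017 was also the deepest of its group, and the part of depth in this result was not tested.

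Cpt1a (ENSMUSG00000024900, chromosome 19 from 3322334 to 3385733, plus strand) encodes the CPT1 isoform best known from liver, which most tissues outside muscle use. In preadipocytes on low-ratio milk it had 3078, 3365, 2666 and 2069 normalized counts (108, 114, 119 and 133), against 1980.1, 1703 and 2752 on high-ratio milk (1015, 1017 and 1019). The top pair of libraries was on low-ratio milk, and libraries 119 and 133 on low-ratio milk fell among the high-ratio values. In progenitors it had 4146, 3884, 3935 and 3696 on low-ratio milk, against 3967, 4529, 3298 and 3530.1 on high-ratio milk (1015, 1017, 1018 and 1019). The low-ratio progenitors had a coefficient of variation of 4.73% and lay inside the range of the high-ratio progenitors, whose coefficient was 14.1%.

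Group means of Cpt1a were 2794 ± 563 in preadipocytes on low-ratio milk (SD, n = 4) and 2145 ± 543 on high-ratio milk (SD, n = 3). The log2 fold change was 0.39 ± 0.21 (SE, interval -0.08 to 0.86, adjusted p = 0.309 by limma), and it moved between 0.24 without high-ratio library 1017 and 0.58 without high-ratio library 1019. In progenitors the means were 3915 ± 185 on low-ratio milk and 3831 ± 542 on high-ratio milk (SD, n = 4 each), with a log2 fold change of 0.04 (interval -0.19 to 0.27). The effects differed by 0.35 ± 0.24 between populations (SE, adjusted p = 0.484 by limma).

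Cpt1b (ENSMUSG00000078937, chromosome 15 from 89416405 to 89425863, minus strand) encodes the CPT1 isoform of muscle and brown fat, and it was near the limit of detection. In preadipocytes on low-ratio milk it had 5.21, 32.9, 11.5 and 51.5 normalized counts, and on high-ratio milk it was listed at 0 in library 1015 and had 51.5 and 7.81 in libraries 1017 and 1019. Library 1015 was the shallowest, where 1 read was worth 2.42 normalized counts. In progenitors it had 8.40, 3.70, 5.64 and 34.1 on low-ratio milk, against 6.42, 16.3, 12.2 and 1.99 on high-ratio milk. These values stand for an estimated 0 to 103 reads per preadipocyte library and 2.82 to 32.0 reads per progenitor library. The groups overlapped in both populations, and the fitted log2 fold changes of 1.32 (interval -1.63 to 4.27) and 0.26 (interval -1.60 to 2.12) do not give a direction. The preadipocyte value depended on the scale: it was 0.46 with a pseudocount of 10, 0.16 on the deposited variance stabilized values and 0.30 in the authors' deposited table, and the group means were 25.3 ± 21.1 on low-ratio milk and 19.8 ± 27.8 on high-ratio milk (SD). The gene model Gm44502 covers Cpt1b on the same strand, with means of 14.7 in preadipocytes and 20.8 in progenitors, so reads may have been split between them and the level of Cpt1b is uncertain.

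Skeletal muscle was the other cell type whose defining genes could bear on Cpt1b. The summed level of the 12 muscle markers, all with a row in both tables, was 485 to 860 normalized counts in preadipocytes on low-ratio milk and 538 to 952 on high-ratio milk. In progenitors the sum was 1471 to 3371 on low-ratio milk and 1525 to 2311 on high-ratio milk. Among preadipocytes the sum was lowest in low-ratio library 133 and highest in high-ratio library 1017, and both libraries had 51.5 normalized counts of Cpt1b. The summed brown adipocyte markers stayed between 149.7 and 361 in all 15 libraries, with Ucp1 at 9.50 or less in every preadipocyte library and 8.74 or less in every progenitor library. The part of either cell type in the Cpt1b values was not tested.

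Cpt1c (ENSMUSG00000007783, chromosome 7 from 44959372 to 44974851, minus strand) encodes a CPT1 relative best known from neurons, where it sits in the endoplasmic reticulum and has little acyltransferase activity. It was the steadiest of the 3 CPT1 genes in preadipocytes on low-ratio milk, with 706, 736, 685 and 811 normalized counts, against 508, 840.2 and 685 on high-ratio milk. In progenitors it had 661, 788, 792 and 868 on low-ratio milk, against 754, 848, 704 and 577 on high-ratio milk. The milk groups overlapped in both populations. Log2 fold changes were 0.14 ± 0.18 in preadipocytes (SE, interval -0.26 to 0.55) and 0.12 ± 0.15 in progenitors (SE, interval -0.21 to 0.44). The preadipocyte value turned to -0.07 once the trend on GC content and length was removed. The antisense gene 6530437J22Rik overlaps Cpt1c with means of 6.89 in preadipocytes and 2.92 in progenitors. The strand setting of the counting is not given, so how reads from the overlap were split between them is uncertain.

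Slc25a20 (ENSMUSG00000032602, chromosome 9 from 108662088 to 108684641, plus strand) encodes the carnitine-acylcarnitine carrier of the inner membrane. In preadipocytes it had 542, 469, 453 and 497 normalized counts on low-ratio milk (108, 114, 119 and 133), against 315, 432 and 415 on high-ratio milk (1015, 1017 and 1019). All 4 low-ratio libraries lay above all 3 high-ratio libraries, by a margin of 453 against 432 at the nearest pair. Such a separation with low above high was found for 2 of the 7 genes (Slc25a20 and Cpt2) and for 10.1% of all genes tested. The means were 490.2 ± 38.9 (SD, n = 4) and 387 ± 63.2 (SD, n = 3), and the log2 fold change of 0.35 ± 0.16 did not pass (SE, interval -0.02 to 0.72, adjusted p = 0.248 by limma).

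In progenitors Slc25a20 had 522, 666, 548 and 486 on low-ratio milk, against 584, 579, 581 and 514 on high-ratio milk, and the groups overlapped. No progenitor comparison of the 7 genes separated the milks, where 2.03% of all genes had low above high and 2.02% low below high. The log2 fold change of Slc25a20 there was -0.03 ± 0.13 (SE, interval -0.33 to 0.26). The effects differed by 0.38 between populations (interval -0.03 to 0.80, adjusted p = 0.332 by limma). The preadipocyte value was 0.21 without high-ratio library 1015, which held the lowest Slc25a20 value, and 0.44 without high-ratio library 1017.

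Cpt2 (ENSMUSG00000028607, chromosome 4 from 107903981 to 107923610, minus strand) encodes the acyltransferase on the matrix face of the inner membrane. In preadipocytes it had 566, 488, 496 and 627 normalized counts on low-ratio milk, against 462, 211 and 426 on high-ratio milk. The milk groups did not overlap, and library 1017 on high-ratio milk stood well below all others. The means were 544 ± 65.3 (SD, n = 4) and 366 ± 136 (SD, n = 3). The log2 fold change was 0.64 ± 0.27 (SE, interval 0.03 to 1.26, unadjusted p = 0.0424), which did not pass after adjustment (adjusted p = 0.211 by limma). The authors' deposited table gives 0.59 with an adjusted p of 0.172. Without library 1017 the value was 0.29.

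In progenitors Cpt2 had 525, 779, 502 and 367 on low-ratio milk, against 599.9, 516, 656 and 581 on high-ratio milk. Both the lowest and the highest progenitor value were on low-ratio milk, and the log2 fold change was -0.16 ± 0.21 (SE, interval -0.63 to 0.31). The difference between the effects, preadipocytes minus progenitors, was 0.80 ± 0.36 (SE, interval 0.04 to 1.57, unadjusted p = 0.0398, adjusted p = 0.256 by limma). It fell to 0.45 without preadipocyte library 1017 on high-ratio milk.

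Crat (ENSMUSG00000026853, chromosome 2 from 30400471 to 30415813, minus strand) encodes carnitine acetyltransferase, which buffers acetyl-CoA in the matrix. In preadipocytes it had 984, 699, 1046 and 1303 normalized counts on low-ratio milk, against 769, 805 and 1049.7 on high-ratio milk. In progenitors it had 1674, 1101, 1384 and 1419 on low-ratio milk, against 1599, 1409, 1600.2 and 794 on high-ratio milk. The groups overlapped in both populations, and library 1019 on high-ratio milk was the lowest progenitor library. Log2 fold changes were 0.18 ± 0.21 in preadipocytes (SE, interval -0.30 to 0.67) and 0.08 ± 0.23 in progenitors (SE, interval -0.43 to 0.59). The gene overlaps Dolpp1 on the opposite strand only from 30400471 to 30400529, at the end of each gene. Over its whole length Dolpp1 had means of 356 in preadipocytes and 400 in progenitors. The antisense gene Gm16323, from 30413716 to 30415338, also overlaps Crat and had no value in either population. Without a stated strand setting, how reads from the overlaps were assigned is uncertain.

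**Figure D2:**
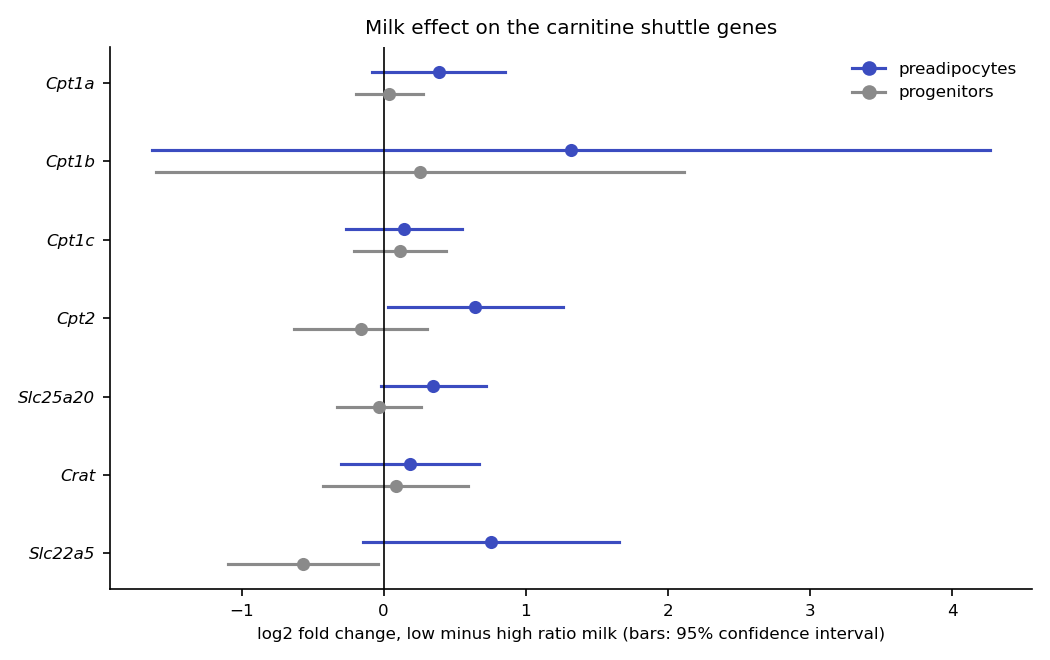
Log2 fold change of each gene on low-ratio minus high-ratio milk (horizontal axis), with 95% confidence intervals from limma, for preadipocytes (4 against 3 libraries) above progenitors (4 against 4). All 7 preadipocyte points lie above 0, and the intervals of Cpt2 in preadipocytes and Slc22a5 in progenitors leave out 0 before adjustment.

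The difference between the effects of milk was above 0 for all 7 genes, with a median of 0.38 against 0.05 over all 15354 genes, of which 54.1% were above 0. None of the 7 passed an adjusted p under 0.05 in this comparison, and 2 (Cpt2 and Slc22a5) had an unadjusted p under 0.05, against 17.6% of all genes. The effect in preadipocytes enters this difference, so the signs are not a second observation. The intervals of Cpt1c (-0.46 to 0.52) and Crat (-0.62 to 0.82) reached well to both sides of 0. For Cpt1a the interval was -0.16 to 0.85.

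**Figure D3:**
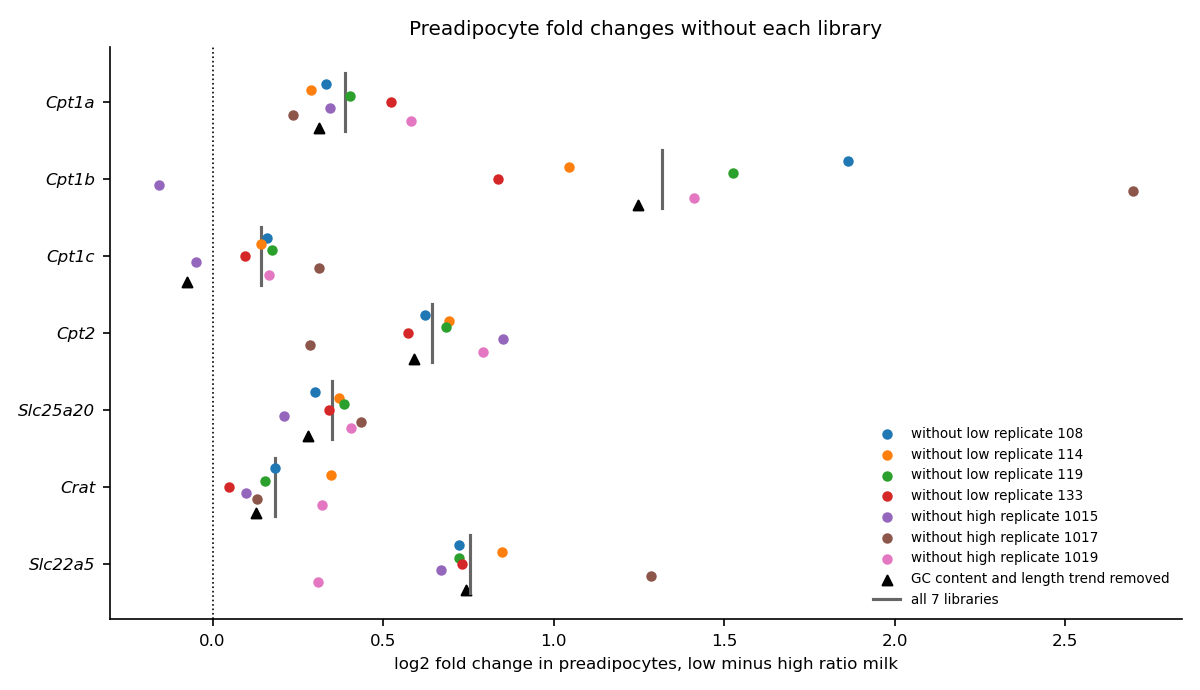
Preadipocyte log2 fold change of each gene, low-ratio minus high-ratio milk (horizontal axis), computed without each library in turn (points), after removal of a trend on GC content and length (triangles) and with all 7 libraries (line). Without high-ratio library 1017, Cpt2 drops to 0.29 and Slc22a5 climbs to 1.29, while Cpt1b and Cpt1c lie below 0 without high-ratio library 1015.

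Library 1017 on high-ratio milk decided several preadipocyte values in opposite directions. Within its group of 3 it had the lowest Cpt1a and Cpt2 and the highest Cpt1b, Cpt1c, Slc25a20 and Slc22a5. Red blood cell markers summed to 1184 to 2283 normalized counts in preadipocytes on low-ratio milk, against 2307, 7669 and 1991 in libraries 1015, 1017 and 1019 on high-ratio milk. Endothelial markers summed to 9224 to 13301 in preadipocytes on low-ratio milk and 7222 to 9513 on high-ratio milk, with Tek alone at 5005 to 9490 over all preadipocyte libraries. Of the 8 endothelial genes 1 rose (adjusted p under 0.05 by limma, against 2.88% of all genes called), while their median log2 fold change was -0.15. Leukocyte markers summed to 319 to 723 on low-ratio milk and 470 to 740 on high-ratio milk, and 1 of the 7 tested fell, with a median of 0.28. The part of these markers in the shuttle gene values was not tested. With library 1017 left out, all 7 genes still had a positive log2 fold change, with a median of 0.31. Without library 1015 it was 5 of 7, and the median was 0.21.

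Levels can be compared between genes only per transcript length. Per kilobase of the median annotated transcript, Cpt1a was the highest of the 7 in every group, at 3019 ± 608 normalized counts in preadipocytes on low-ratio milk, 2318 ± 587 on high-ratio milk, 4231 ± 199.9 in progenitors on low-ratio milk and 4139.7 ± 585 on high-ratio milk (SD). Crat came next in every group, from 1279 ± 223 in preadipocytes on high-ratio milk to 2039 ± 343 in progenitors on low-ratio milk. Cpt2 followed, at 485 ± 180 to 779 ± 76.3 over the 4 groups. Below it were Slc22a5, Cpt1c and Slc25a20, with Slc22a5 at 498 ± 60.5 in preadipocytes on low-ratio milk and 323 ± 117 in progenitors on low-ratio milk. Slc25a20 and Cpt1c were neighbours in this order in every group, and within their SD in preadipocytes on low-ratio milk, at 275 ± 21.8 and 279 ± 20.9. Cpt1b was lowest in every group, at 12.5 ± 8.56 to 34.4 ± 28.8.

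The middle of this order depended on the length used. Per kilobase of the longest transcript, Cpt1a stayed first (647 ± 130 in preadipocytes on low-ratio milk) and Cpt1b last (8.73 ± 7.30). Crat (239 ± 58.7), Cpt2 (229 ± 27.5) and Cpt1c (225 ± 16.9) then lay within each other's SD in that group, above Slc25a20 (178 ± 14.2) and Slc22a5 (139.9 ± 17.0). Among all tested genes, the mean of Cpt1a per kilobase of the longest transcript stood at percentile 84.2 in preadipocytes and 89.0 in progenitors. The other genes apart from Cpt1b stood between 52.2 and 66.9 in preadipocytes and between 48.7 and 73.3 in progenitors. Cpt1b stood at 9.27 in preadipocytes and 2.83 in progenitors.

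Cpt1a made up most of the CPT1 transcripts in both populations. Per kilobase of the median transcript, its share of the 3 CPT1 genes was 90.2% ± 3.17 in preadipocytes on low-ratio milk (SD, n = 4) and 88.6% ± 5.28 on high-ratio milk (SD, n = 3). In progenitors it was 93.1% ± 1.27 on low-ratio milk and 93.5% ± 0.771 on high-ratio milk (SD, n = 4 each). Per kilobase of the longest transcript the shares were 72.9%, 69.5%, 78.9% and 79.8% in the same order of groups, and the remainder was almost wholly Cpt1c. Shares are taken within a library and do not depend on how libraries were scaled. Library 1017 on high-ratio milk had the lowest share of the preadipocytes on either scale, 82.5% and 58.9%.

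The ratio of Cpt1a to Cpt1c normalized counts within a library was 4.36, 4.57, 3.89 and 2.55 in preadipocytes on low-ratio milk (108, 114, 119 and 133) and 3.90, 2.03 and 4.02 on high-ratio milk (1015, 1017 and 1019). In progenitors it was 6.28, 4.93, 4.97 and 4.26 on low-ratio milk and 5.26, 5.34, 4.69 and 6.12 on high-ratio milk. The milks overlapped in both populations. Of the 7 preadipocyte libraries, 5 lay below every progenitor library, and libraries 108 and 114 on low-ratio milk lay above the lowest of them. The scaling of a library cancels in such a ratio, and this difference between the populations is given as a description with no test.

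Cpt1a against Cpt2, the outer and inner acyltransferases, gave ratios of 5.44, 6.89, 5.37 and 3.30 in preadipocytes on low-ratio milk and 4.28, 8.08 and 6.46 on high-ratio milk. In progenitors they were 7.90, 4.99, 7.84 and 10.1 on low-ratio milk and 6.61, 8.78, 5.03 and 6.08 on high-ratio milk. All groups overlapped. These ratios are of normalized counts, not per length, and serve to compare libraries rather than the levels of the genes. Cpt2 against Slc25a20 was 1.04 to 1.26 in preadipocytes on low-ratio milk, 0.755 to 1.17 in progenitors on low-ratio milk and 0.891 to 1.13 in progenitors on high-ratio milk. Preadipocytes on high-ratio milk spread from 0.488 in library 1017 over 1.03 in library 1019 to 1.47 in library 1015. The SD of this ratio in preadipocytes was 0.104 on low-ratio milk and 0.491 on high-ratio milk.

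**Figure D4:**
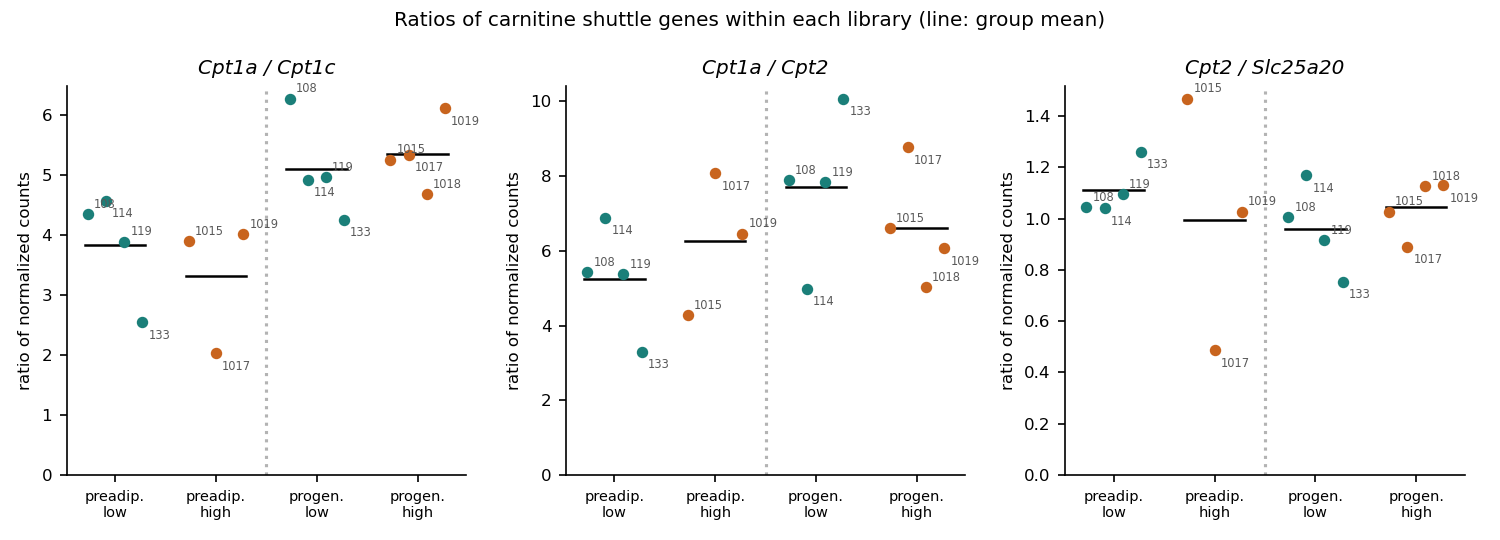
Ratios of normalized counts of Cpt1a to Cpt1c, Cpt1a to Cpt2 and Cpt2 to Slc25a20 (vertical axes, from 0) within each library, with the library number beside each point and the group mean as a line. Preadipocytes lie left and progenitors right of the dotted line, and Cpt2 to Slc25a20 spreads from 0.488 to 1.47 in preadipocytes on high-ratio milk.

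Summed over the 7 genes, normalized counts were 5807 to 6338 in preadipocytes on low-ratio milk and 4258 to 5470 on high-ratio milk, with no overlap. Of single genes, 10.1% separated this way in preadipocytes, but that is not the share for sums of 7 genes, which was not computed. The sum also contains Cpt2 and Slc25a20, whose own milk groups did not overlap. Cpt1a, whose own milk groups overlapped, was the largest part of the sum, with 3365 of 6141 in low-ratio library 114. In progenitors the sums were 7296 to 7788 on low-ratio milk and 6380 to 8251 on high-ratio milk, and the low-ratio values lay inside the high-ratio range.

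Genes around the shuttle were described from lists of its pathway. Of the 10 long-chain acyl-CoA synthetase and acyl-CoA binding genes, all tested, 1 fell in preadipocytes (2.88% of all genes were called) and none in progenitors (0.0%). It was Dbi, the acyl-CoA binding protein that carries acyl-CoA in the cytosol, at 1465 ± 198 normalized counts on low-ratio milk (SD, n = 4) and 2303 ± 248 on high-ratio milk (SD, n = 3), and its log2 fold change was -0.66 ± 0.13 (SE, adjusted p = 0.0441 by limma). The call rested on the setting: it was lost after removal of the GC content and length trend (adjusted p = 0.0766 by limma), without the trend and robust options of limma (0.106) and without any single library other than 1019 (0.0665 to 0.14). Acsl3, a synthetase of lipid droplets and the endoplasmic reticulum, had 678 ± 206 on low-ratio milk and 361 ± 153 on high-ratio milk (log2 fold change 0.94, adjusted p = 0.144 by limma). In progenitors Acsl4, the synthetase with a preference for arachidonic acid, had 1111 ± 563 on low-ratio milk and 533 ± 138 on high-ratio milk (adjusted p = 0.656 by limma), and Acsl1 had a log2 fold change of 0.24 (adjusted p = 0.748 by limma). The effect on Acsl4 differed by -1.91 between preadipocytes and progenitors (adjusted p = 0.122 by limma).

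Carnitine synthesis and other carnitine carriers had 9 of 13 genes tested, and none passed in either population. Their median log2 fold change was -0.10 in preadipocytes and 0.03 in progenitors. Crot, the carnitine octanoyltransferase of peroxisomes, had 562 ± 44.3 normalized counts in preadipocytes on low-ratio milk (SD, n = 4) and 804 ± 103 on high-ratio milk (SD, n = 3), without overlap. Its log2 fold change was -0.51 ± 0.14 (SE, adjusted p = 0.0847 by limma), and in progenitors it was -0.26 (adjusted p = 0.748 by limma). Shmt2, the mitochondrial serine hydroxymethyltransferase, had 1005 ± 98.3 in preadipocytes on low-ratio milk and 753 ± 83.7 on high-ratio milk, also without overlap, with the opposite sign (log2 fold change 0.41, adjusted p = 0.122 by limma). Over the list, 3 genes in preadipocytes had all low-ratio libraries above all high-ratio ones, against 10.1% of all genes. In 1 gene, Crot, all low-ratio libraries lay below all high-ratio ones, as in 1748 of all 15893 genes tested. Such a separation was thus not rare in this comparison. In progenitors Slc22a21, a carnitine transporter related to Slc22a5, had a log2 fold change of 0.48 (adjusted p = 0.755 by limma).

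Control of CPT1 by malonyl-CoA and AMPK was covered by 13 genes, of which 0 passed in either population, with a median of 0.17 in preadipocytes and 0.09 in progenitors. Acacb, the acetyl-CoA carboxylase at the outer mitochondrial membrane whose malonyl-CoA inhibits CPT1, had 85.0 ± 39.98 on low-ratio milk and 36.5 ± 18.0 on high-ratio milk in preadipocytes (log2 fold change 1.17, adjusted p = 0.185 by limma). Acly, ATP citrate lyase, had a log2 fold change of 0.24 in preadipocytes (adjusted p = 0.259 by limma). In progenitors the smallest p belonged to Mcat, the mitochondrial malonyl-CoA acyl carrier protein transacylase, which had 93.5 ± 31.3 on low-ratio milk and 195 ± 62.9 on high-ratio milk, without overlap (log2 fold change -1.07, unadjusted p = 0.00639, adjusted p = 0.591 by limma). Acacb there had 85.0 ± 34.7 on low-ratio milk and 52.1 ± 26.8 on high-ratio milk (log2 fold change 0.76, adjusted p = 0.748 by limma).

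Matrix beta-oxidation of long-chain acyl-CoA had 18 genes, all tested, and none passed in either population. Their median log2 fold change was 0.06 in preadipocytes and -0.12 in progenitors. The smallest p-values in preadipocytes belonged to genes with lower values on low-ratio milk. Decr1, a reductase needed to oxidize unsaturated fatty acids, had 970.5 ± 135 on low-ratio milk and 1390.5 ± 192 on high-ratio milk (log2 fold change -0.52, adjusted p = 0.0980 by limma). Etfa, a subunit of the flavoprotein that takes electrons from acyl-CoA dehydrogenases, had -0.43 in preadipocytes (adjusted p = 0.128 by limma) and -0.41 in progenitors (adjusted p = 0.688 by limma). Acad9, an acyl-CoA dehydrogenase that also serves complex I assembly, had -0.35 in progenitors (adjusted p = 0.728 by limma). The milk effect on Acadl, the long-chain acyl-CoA dehydrogenase, differed by 0.47 between preadipocytes and progenitors (adjusted p = 0.122 by limma).

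Regulators of fatty acid oxidation genes numbered 14, and none passed in either population, with medians of 0.00 in preadipocytes and 0.09 in progenitors. Ppard, a nuclear receptor that drives oxidation genes, had 807 ± 29.4 normalized counts in preadipocytes on low-ratio milk (SD, n = 4) and 671 ± 57.5 on high-ratio milk (SD, n = 3), without overlap (log2 fold change 0.27, adjusted p = 0.227 by limma). Its partner Rxra had 0.28 (adjusted p = 0.387 by limma). In progenitors the smallest p-values fell on the COUP-TF nuclear receptors. Nr2f2 had 983 ± 171 on low-ratio milk and 637 ± 74.7 on high-ratio milk (log2 fold change 0.62, adjusted p = 0.566 by limma). Nr2f1 had 176 ± 28.7 on low-ratio milk and 284 ± 41.9 on high-ratio milk (log2 fold change -0.69, adjusted p = 0.591 by limma).

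General mitochondrial membrane and matrix genes were set beside the shuttle, since its enzymes share their membranes. Of 10 genes tested, none passed in either population, and the median was 0.16 in preadipocytes and 0.03 in progenitors. In preadipocytes 8 of 10 had an unadjusted p under 0.05, against 21.7% of all genes, with values on both sides of 0. Cs, citrate synthase, had 2592 ± 171 on low-ratio milk and 2061 ± 131 on high-ratio milk (log2 fold change 0.33, adjusted p = 0.0988 by limma). Vdac3, an outer membrane channel, had 1788 ± 91.4 on low-ratio milk and 2317 ± 234 on high-ratio milk (log2 fold change -0.37, adjusted p = 0.0908 by limma). In progenitors Phb2 had -0.18 (adjusted p = 0.762 by limma) and Vdac3 had 0.14 (adjusted p = 0.855 by limma). Genes on the acetyl-CoA and pyruvate side of Crat gave 0 of 12 passing in either population and medians of 0.07 in preadipocytes and 0.03 in progenitors. Acat1, the mitochondrial acetoacetyl-CoA thiolase, had -0.40 in preadipocytes (adjusted p = 0.0971 by limma) and Pdk2, a kinase that shuts off pyruvate dehydrogenase, had 0.42 (adjusted p = 0.123 by limma). In progenitors Dlat, a subunit of pyruvate dehydrogenase, had -0.23 (adjusted p = 0.748 by limma) and Pdk4 had -0.35 (adjusted p = 0.762 by limma). None of the 86 genes in these 7 lists that were tested passed for the difference between populations.

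Likeness to Cpt1a was measured as the root mean square distance of log2(normalized count + 1) over the 15 libraries, with each gene centred on its own mean within each population. Among 10091 protein-coding genes with a mean of at least 100 in both tables, the nearest included Cdk2 (0.16), Slc35a4 (0.16), Fnip2 (0.17) and Grsf1 (0.17). A gene that did not vary at all would lie at 0.25, the spread of Cpt1a around its own mean. Slc25a20 lay at 0.24 (rank 940), Cpt1c at 0.31 (rank 3813), Cpt2 at 0.37 (rank 6173), Crat at 0.39 (rank 6639) and Slc22a5 at 0.65 (rank 9483). The other shuttle genes were thus not among the genes nearest to Cpt1a by this distance, and Cpt1b was below the level needed. The distance also depends on how much a gene varies. Pearson r with Cpt1a was 0.39 for Slc25a20, 0.38 for Cpt2, 0.08 for Cpt1c, 0.05 for Crat and -0.23 for Slc22a5.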

How the data were processed

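The sample columns of the 2 deposited tables, 1 per population, hold the authors' variance stabilized expression values on a log2-like scale, and each table was normalized on its own. The submitters' processing notes name the quantifier Salmon (0.14.2), DESeq2 (1.28.1) and, as builds, GRCm38 and mm10. Neither the annotation release nor the strand setting is given in the sources used here. Each table also holds the authors' deposited log2 fold changes, p-values and adjusted p-values for the milks.

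The transformation was inverted to normalized counts from the floor of each table (7.12 in preadipocytes, 7.70 in progenitors). Recomputed fold changes differed from the authors' by a median of 0.00304 over 11076 preadipocyte genes and 0.000751 over 11162 progenitor genes whose mean reached 100. Gene IDs were matched to GENCODE M21 (GRCm38): 23096 of 23118 in preadipocytes and 23322 of 23347 in progenitors.

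Milk effects were tested in R 4.3.3 with the trend and robust options of limma 3.58.1, on log2(normalized count + 1), keeping genes whose mean reached 10. P-values were adjusted by Benjamini-Hochberg over all genes tested, at 0.05. Low values gave whole reads (tolerance 0.02, up to 20 reads) for 20.7% to 57.0% of values per library, so depth was estimated from their steps and no count test was run. No sample column was left unmapped.

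The 7 genes, the lists and the rule for names were chosen with earlier results of these data known. From each other list, genes past the threshold and the pair with the smallest p were named where described, and the 5 genes nearest to Cpt1a, of which 1 is not reported here. Alternatives were other pseudocounts, filters and scalings, the deposited values, a GC content and length correction (mgcv), limma without its options, a replicate block and leaving out each library. Sequences are RefSeq's, on GRCm38.p6.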

Additional observations from a re-analysis of the deposited data

Results flagged for a closer look

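Of the 21 sets of 4 libraries formed by a gene and a group, 3 held a library far from the other 3 by Dixon's test, which flags about 1 set in 20 by chance. Cpt1b in progenitors on low-ratio milk had 34.1 normalized counts in library 133, the highest, against 3.70 to 8.40 in the other libraries of the group. Slc22a5 in preadipocytes on low-ratio milk had 350.5 in library 114, the lowest, against 449 to 457 in the others. Slc25a20 in progenitors on high-ratio milk had 514 in library 1019, the lowest, against 579 to 584 in the others. Groups of 3 were not examined in this way. The preadipocytes on high-ratio milk are such a group, and their coefficients of variation were 69.6% for Slc22a5 and 37.1% for Cpt2.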

How the results depend on the processing

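Of 360 log2 fold changes of the 7 genes under alternatives, 340 kept their sign and their side of the threshold, 19 reversed and 1 passed the threshold. A filter at a mean of 50 left out Cpt1b. Other reversals than those of single libraries were -0.074 for Cpt1c in preadipocytes and -0.15 for its difference between populations, both with the GC content and length trend removed, and -0.00021 for the difference of Crat under the replicate block. Leaving out 1 library gave ranges across 0 in preadipocytes for Cpt1b (-0.16 to 2.70) and Cpt1c (-0.050 to 0.31). In progenitors it did so for Cpt1a (-0.028 to 0.12), Cpt1b (-0.24 to 0.62), Crat (-0.15 to 0.19), Cpt2 (-0.35 to 0.0095) and Slc25a20 (-0.12 to 0.029). For the difference it did so for Cpt1b (-0.42 to 2.44), Cpt1c (-0.17 to 0.20) and Crat (-0.035 to 0.34).

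Counts of called genes moved more. In preadipocytes 458 genes were called (85 higher, 373 lower), 9 with the GC content and length trend removed (7 higher, 2 lower), 6 by limma without trend and robust options, and 2 to 1159 without 1 library. In progenitors it was 0, and 0 to 3 without 1 library. The difference between populations called 350 genes, 113 with the GC content and length trend removed and 70 to 849 without 1 library. Of the 7 genes, 0 to 1 were called there without 1 library (Slc22a5 without preadipocyte library 1017). The cause was not tested.

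Replicate numbers occur in both populations, and whether same-numbered libraries came from the same source is not stated. Same-numbered libraries deviated together at r of -0.102 to 0.0767 over 11173 genes, and libraries of different numbers on the same milk at -0.133 to 0.176. Of the preadipocyte libraries, only 1015 correlated best with its own number (0.0767, against 0.0746 with progenitor library 1018). Little shared deviation was thus seen, but in groups of so few libraries this cannot show whether the libraries are paired. The main comparison between populations used no replicate block. With the number as a replicate block, 43 genes and none of the 7 were called for the difference. The milk groups share no number within a population. Cpt1b had the fewest estimated reads of the 7 genes, 0 to 103 per library, which limits the precision of its values.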
